A study of Mus musculus with 6 samples.

Results

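Cytosolic ribosomal protein genes encode the proteins of the large and the small ribosomal subunit. Their members here were the genes whose single symbol in the platform annotation begins with Rpl or Rps and a digit, or is Rplp0, Rplp1, Rplp2 or Rpsa, without the ribosomal S6 kinases and pseudogene symbols. The rule found 63 of 19938 genes measured with a single symbol, and each was read from its probe set with the highest mean over 6 arrays. The arrays held RNA of natural killer (NK) cells, lymphocytes that kill infected or transformed cells, sorted from the spleen of C57Bl/6 mice aged 8 to 12 weeks as YFP+, CD27+, NK1.1+ and CD3-. There were 3 arrays of the genotype 15a/16-1FKO, called the knockout, and 3 of the genotype Ctrl, sorted directly after the spleen was taken. All 6 arrays were of YFP+ cells, and the labels name neither the driver of a Cre nor the alleles of the Ctrl mice. The submitters describe the arrays as technical replicates, but sex-linked transcripts, given further on, differed between arrays of a genotype, which goes against repeats of a single RNA. Whether the arrays came from separate animals or pools is not stated and was not tested. All knockout arrays and Ctrl 3 held Xist, a transcript of females, together with Y-linked transcripts, as given further on. The p-values cover only the spread among the arrays. In RNA of sorted cells, fewer cells of a type and less RNA per cell cannot be told apart. The comparison asked what loss of microRNA-15a and microRNA-16-1 does to the RNA of CD27+ NK cells.

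Ribosomal protein mRNAs are among the most abundant of a lymphocyte, and their products assemble with ribosomal RNA in the nucleolus. Many of these mRNAs start with a C and a run of pyrimidines, the terminal oligopyrimidine (TOP) motif, through which mTOR and LARP1 control their translation as a group. NK cells that leave rest under cytokines raise their ribosome content and protein synthesis, and microRNA-15 and microRNA-16 are known for restraining cell cycle and growth genes.

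The deleted microRNAs are shown first because they define the genotypes. Both share the seed, bases 2 to 8, set in capitals in the RefSeq sequences of GRCm38.p6.
mmu-miR-15a-5p: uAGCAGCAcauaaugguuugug
mmu-miR-16-5p: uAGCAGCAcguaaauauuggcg
The first lies at chr14:61632075-61632096 and the second, in its Mir16-1 copy, at chr14:61631936-61631957, both on the minus strand. The Mir15a probe set read 4.37, 3.53 and 3.43 in the knockout arrays and 7.14, 6.02 and 6.69 in the Ctrl arrays (log2 level, replicates 1 to 3). That of Mir16-1 read 2.61, 2.68 and 3.00 against 3.19, 3.20 and 3.77. Mir15a was lower in every knockout array than in any Ctrl array (adjusted p = 0.0296 by limma). The Mir16-1 values all lay under 4.13, the background level described further on, and were not used as a check of the labels. Of the 63 members, 0 lay on chromosome 14.

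The 5′ starts of 6 members with a TOP-like start and of Rpl6 are shown because this feature was not used to choose the members. Rpl6 had the lowest genotype difference and no such run at its annotated first base. Each line gives 15 bases on either side of the start of the RefSeq transcript (GRCm38.p6), and capitals mark the run of C and pyrimidines that begins at the first transcribed base.
Rps6: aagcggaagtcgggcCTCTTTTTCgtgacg
Rps18: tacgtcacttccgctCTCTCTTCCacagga
Rps10: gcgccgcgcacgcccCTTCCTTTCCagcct
Rpl38: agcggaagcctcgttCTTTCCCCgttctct
Rplp2: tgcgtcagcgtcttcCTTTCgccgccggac
Rpl14: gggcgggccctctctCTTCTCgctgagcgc
Rpl6: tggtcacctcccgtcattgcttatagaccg
Rps6 starts at chr4:86857353-86857382 on the minus strand, Rps18 at chr17:33955651-33955680 and Rps10 at chr17:27635230-27635259, also on the minus strand. On the plus strand lie Rpl38 at chr11:114668565-114668594, Rplp2 at chr7:141447636-141447665, Rpl14 at chr9:120571502-120571531 and Rpl6 at chr5:121204486-121204515. Of the 43 members that are canonical subunit proteins and have an entry in the RefSeq promoter table, 9 (20.9%) had a C followed by at least 4 pyrimidines at an annotated start. Over all 27025 genes of that table the share was 3.01%. Annotated starts can be off by a few bases, and a run within 20 bases of the start on the transcribed strand was present in 33 of 43 (76.7%) against 53.3% of all genes. The ETS core CCGGAAG, searched on both strands from 250 bases before to 50 after the start, was found in 17 of 43 (39.5%) and in 9.93% of all genes. The E-box CACGTG was found in 5 of 43 (11.6%) and in 8.09% of all genes. These motifs were searched separately, so that matches may overlap, and a match is a description of the sequence only.

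The members were not all subunit proteins. Of the 63, 33 are large subunit proteins, 21 are small subunit proteins, 6 are paralogs (Rpl3l, Rpl7l1, Rpl10l, Rpl39l, Rps4l and Rps27l) and 3 carry only a ribosomal name. These 3 were Rps19bp1, which encodes a binding partner of RPS19 and SIRT1, Rps23rg1, a retroposed copy derived from Rps23, and Rpl32l. In a written list of 79 canonical proteins, 55 had a probe set with a single symbol, 1 of which, Fau, has a name outside the rule. Another 16, among them Rpl11, Rpl13a, Rps24 and Rps27, were read only from probe sets with several symbols. The canonical proteins without a single-symbol probe set were not analysed here. In all, 239 probe sets with several symbols name a ribosomal protein gene, those of the 16 included, and these were not assigned to a gene.

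Markers of the labelled cell type were present. Ncr1, an activating receptor of NK cells, read 10.4 to 10.7 in the 6 arrays, and Klrb1c, which encodes NK1.1, read 9.66 to 9.85. The B cell gene Ms4a1 read at most 3.11 and the T cell gene Cd8a at most 3.72, both under 4.13. That value, the 95th percentile of 1027 olfactory receptor genes, served as the background level. By their mean over the arrays, 4 of 8 T cell markers, 5 of 7 B cell markers and 4 of 8 myeloid markers lay under that level. Above it were Cd3d, of the complex sorted against at the surface, at 6.99 to 7.79, Cd3g at 6.45 to 7.50 and Cd3e at 5.63 to 6.78. The T cell gene Bcl11b, with a mean of 4.77, and the B cell genes Cd79b, at 4.24 to 5.35, and Pax5, with a mean of 4.34, lay above it too. The myeloid gene S100a8 read 6.30 to 8.09 and differed by 0.77 between knockout and Ctrl (unadjusted p = 0.0407, adjusted p = 0.999 by limma). Itgax, S100a9 and Lyz2, also above background in their mean, differed by 0.20 (SE 0.19), 0.18 (SE 0.49) and -0.12 (SE 0.27). Their means were 9.17, 6.61 and 5.06, so that Itgax was about as bright as Cd27, with a mean of 9.08. Which cells the Itgax signal came from was not tested. Arrays correlated with r between 0.982 and 0.984 within a genotype (6 pairs) and between 0.981 and 0.987 across genotypes (9 pairs).

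No member passed the threshold between knockout and Ctrl. By limma with Benjamini-Hochberg adjustment over 19938 genes, 0 of 63 had an adjusted p under 0.05, where 0.0201% of all genes did, and the lowest adjusted p of a member was 0.999. An unadjusted p under 0.05 was reached by 0 members and by 3.47% of all genes. The difference was above 0 in 27 members and below 0 in 36, and its median was -0.0074 on the log2 scale, beside -0.0081 over all genes. The absolute difference had a median of 0.051 in the members and 0.11 in all genes, and 49 of 63 members differed by less than 0.1. In the 10 NK markers it had a median of 0.055. All genes were not matched to the members for brightness, here and in the comparisons that follow. In their mean, 9046 of 19938 genes lay under background, against 3 of 63 members. The 95% interval lay between -0.5 and 0.5, a 1.41-fold change either way, in 54 of 63 members (85.7%) and in 52.4% of all genes. The limit of 0.5 was chosen after the values were seen. The 9 members whose intervals reached beyond these limits were Rpl6, Rpl12, Rpl14, Rps19bp1 and the paralogs Rpl7l1, Rpl10l, Rpl39l, Rps4l and Rps27l.

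**Figure D1:**
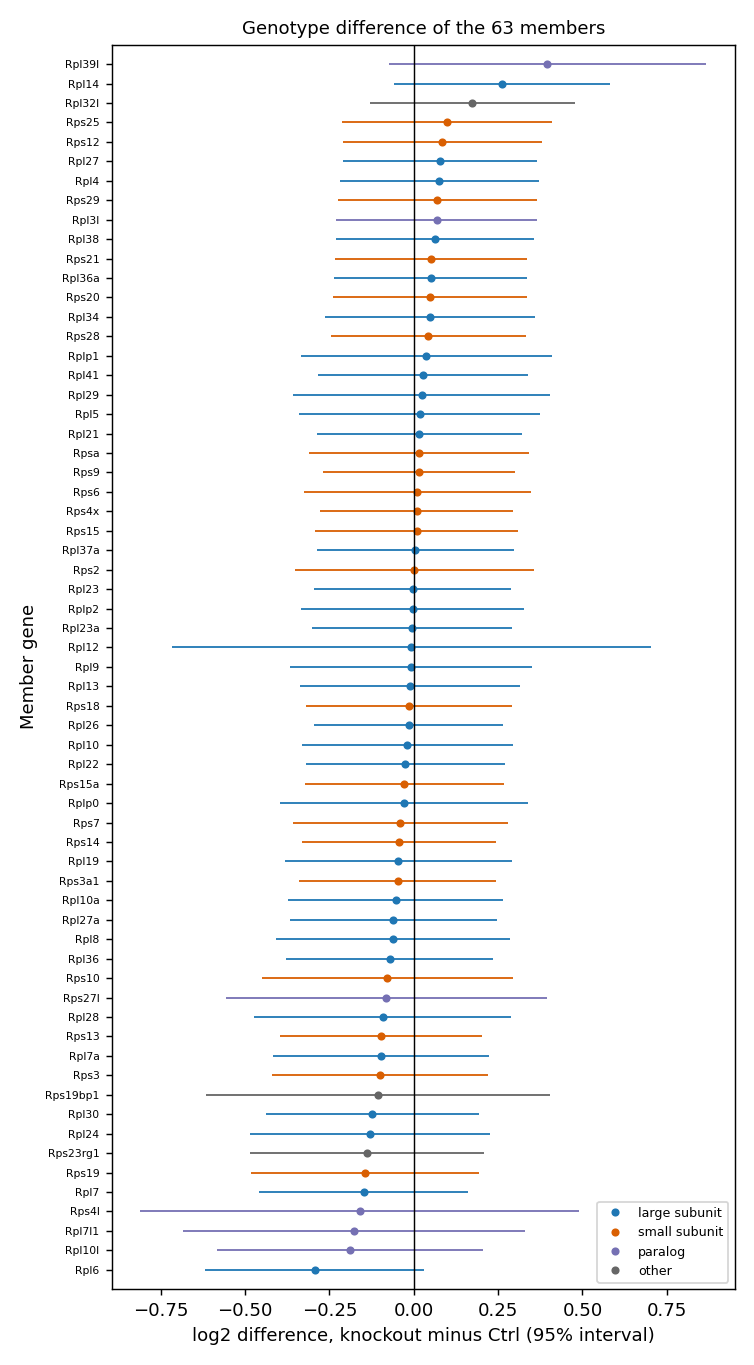
Genotype difference of the 63 members: points are knockout minus Ctrl differences of log2 levels (3 arrays each) and lines the 95% intervals of the limma fit, coloured by role. All 63 intervals include 0, from Rpl6 at -0.29 to Rpl39l at 0.40.

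Both subunits had median differences near 0. The 33 large subunit members had 12 positive and 21 negative differences (median -0.0074), and the 21 small subunit members 12 and 9 (median 0.0084). The spread between arrays of a genotype, as the pooled SD of a gene, had a median of 0.12 in the large subunit, 0.089 in the small subunit and 0.20 over all genes.

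Rpl6, a large subunit protein, came nearest to the threshold. It read 10.89, 10.86 and 10.89 in the knockout arrays and 10.98, 11.37 and 11.17 in the Ctrl arrays. It was the only member whose genotypes did not overlap, 1 of 63, where 8.33% of all genes had no overlap, 3.68% higher and 4.65% lower in the knockout. The means were 10.88 ± 0.02 and 11.17 ± 0.19 (SD, n = 3). The level was 1.23-fold higher in Ctrl, with a log2 difference of -0.29 (SE 0.14, 95% interval -0.62 to 0.03, unadjusted p = 0.0712 and adjusted p = 0.999 by limma). Permuting the arrays exactly, two-sided, gave p = 0.1, the smallest that 3 against 3 arrays allow. Its other probe sets differed by -0.18 and -0.20, and in each of them 1 knockout array exceeded the lowest Ctrl array, Ctrl 1.

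Rpl14, another large subunit protein, differed the other way. It read 7.73, 7.97 and 7.84 in the knockout arrays and 7.47, 7.55 and 7.74 in the Ctrl arrays. Only Ctrl 3 reached into the knockout range, and the difference was 0.26 (95% interval -0.06 to 0.58, unadjusted p = 0.0976 by limma). Rpl14 has a TOP-like run at its annotated start, printed above, and Rpl6 has none at that base. The printed bases just before the Rpl6 start do hold a run of C and pyrimidines, and annotated starts can be off. A link between such starts and the differences was not tested. Rpl7 differed by -0.15 (SE 0.14), Rpl24 by -0.13 (SE 0.16) and Rpl30 by -0.12 (SE 0.14). None of these 3 separated the genotypes.

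The ribosomal stalk recruits the elongation factors. Its base protein Rplp0 read 11.25, 11.43 and 11.28 in the knockout arrays and 11.04, 11.56 and 11.44 in the Ctrl arrays, so that Ctrl arrays held both the highest and the lowest value. The difference was -0.03 (SE 0.16). The stalk proteins Rplp1 and Rplp2 differed by 0.04 (SE 0.17) and -0.0031 (SE 0.15). Rpl12, which lies at the base of the stalk, read 5.83, 4.85 and 4.79 against 4.67, 5.69 and 5.12. This probe set varied by 1.05 within the knockout and 1.02 within Ctrl, beside a genotype difference of -0.0066 (95% interval -0.72 to 0.70).

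Members known for signalling to p53 had differences near 0. Rpl5, which binds MDM2 when ribosome assembly fails, read 10.53, 10.43 and 10.45 in the knockout arrays and 10.19, 10.71 and 10.45 in the Ctrl arrays, a difference of 0.02 (95% interval -0.34 to 0.38). Rpl23, another MDM2 binder, differed by -0.0026 (SE 0.13). Rpl26, which binds p53 mRNA, read 10.64 to 10.69 in all 6 arrays and differed by -0.02 (95% interval -0.30 to 0.27). Rps27l, a paralog of Rps27 that p53 induces, read 8.35, 8.56 and 8.84 against 8.30, 8.61 and 9.07. The arrays of its genotypes overlapped fully, with a difference of -0.08 (SE 0.21).

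Small subunit members with further known roles did not pass either. Rps6, the substrate of the S6 kinases, read 11.61, 11.36 and 11.55 in the knockout arrays and 11.65, 11.29 and 11.55 in the Ctrl arrays, a difference of 0.01 (95% interval -0.33 to 0.35). Rps19, the gene most often mutated in human Diamond-Blackfan anaemia, differed by -0.14 (SE 0.15) and Rps14 by -0.04 (SE 0.13). Rps3, which also acts in DNA repair, differed by -0.10 (SE 0.14) and Rps2 by 0.0022 (SE 0.16). Rpl38 of the large subunit, needed for Hox mRNA translation in mouse embryos, differed by 0.06 (SE 0.13). Rpl22, required for development of alpha-beta T cells in mice, read 6.28 to 6.37 in the knockout and 6.27 to 6.46 in Ctrl.

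Rps29, Rps28, Rps20 and Rpl41 were named for their bright probe sets. Rps29 read 12.67, 12.72 and 12.74 in the knockout arrays and 12.62, 12.56 and 12.76 in the Ctrl arrays, a difference of 0.07 (SE 0.13). Rps28, Rps20 and Rpl41 differed by 0.04, 0.05 and 0.03. The highest value in the table was 13.6, and what the bright end of the scale does to small differences was not tested. The order of levels among members was not interpreted, because probes differ in how strongly they bind.

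The X-linked members can be set against the sex-linked transcripts, which varied between arrays. Rps4x read 11.33 to 11.43 over all 6 arrays, with a difference of 0.0086 (SE 0.13). Rpl10 differed by -0.02 (SE 0.14) and Rpl36a by 0.05 (SE 0.13). The testis gene Rpl10l, an autosomal retrocopy that takes the place of Rpl10 in mouse meiosis, read 1.96 to 2.60, under background in every array.

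Paralogs known from other tissues lay at background. Rpl3l, the striated muscle form of Rpl3, read 2.90 to 3.13, and Rpl39l, the male germ cell form of Rpl39, 2.34 to 3.27. Rpl39l had the highest difference of all members, 0.40 (95% interval -0.07 to 0.87), from knockout values of 2.82, 3.27 and 2.39 against 2.54, 2.42 and 2.34, all of them under 4.13. Rps4l read 5.22, 5.91 and 5.40 in the knockout, and 6.16 in Ctrl 2 and 5.84 in Ctrl 3, with Ctrl 1 lower than Ctrl 2 by 1.16. Rpl7l1 read 6.50, 6.15 and 6.31 against 6.10, 6.36 and 7.02. The differences of Rps4l, -0.16 (SE 0.29), and Rpl7l1, -0.18 (SE 0.23), were smaller than the ranges of their Ctrl arrays. Of the members with only a ribosomal name, Rpl32l differed by 0.17 (SE 0.14) and Rps23rg1 by -0.14 (SE 0.15).

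The members also varied among arrays of one genotype. The range of the 3 Ctrl arrays exceeded the genotype difference in 59 of 63 members (93.7%) and in 86.6% of all genes, a share near the background. Ctrl 2 was the highest of the 6 arrays in 23 members (36.5%) and in 15.8% of all genes, and Ctrl 1 the lowest in 25 members (39.7%) and in 13.4% of all genes. In 16 members both held. The level in Ctrl 2 minus that in Ctrl 1 was positive in 41 of 63 members and in 9134 of 19938 genes, with medians of 0.12 and -0.03. By subunit it was positive in 24 of 33 large (median 0.17) and 12 of 21 small subunit members (median 0.056). This difference was 0.52 for Rplp0, 0.52 for Rpl5, 0.51 for Rps2 and 0.48 for Rpl24. The opposite order was found in Rps6 at -0.36, where all 8 probe sets lay between -0.43 and -0.22. The Rpsa probe set with the highest mean had -0.21, but in its 4 other probe sets Ctrl 2 lay above Ctrl 1. These are differences between single arrays, with no replicate check.

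**Figure D2:**
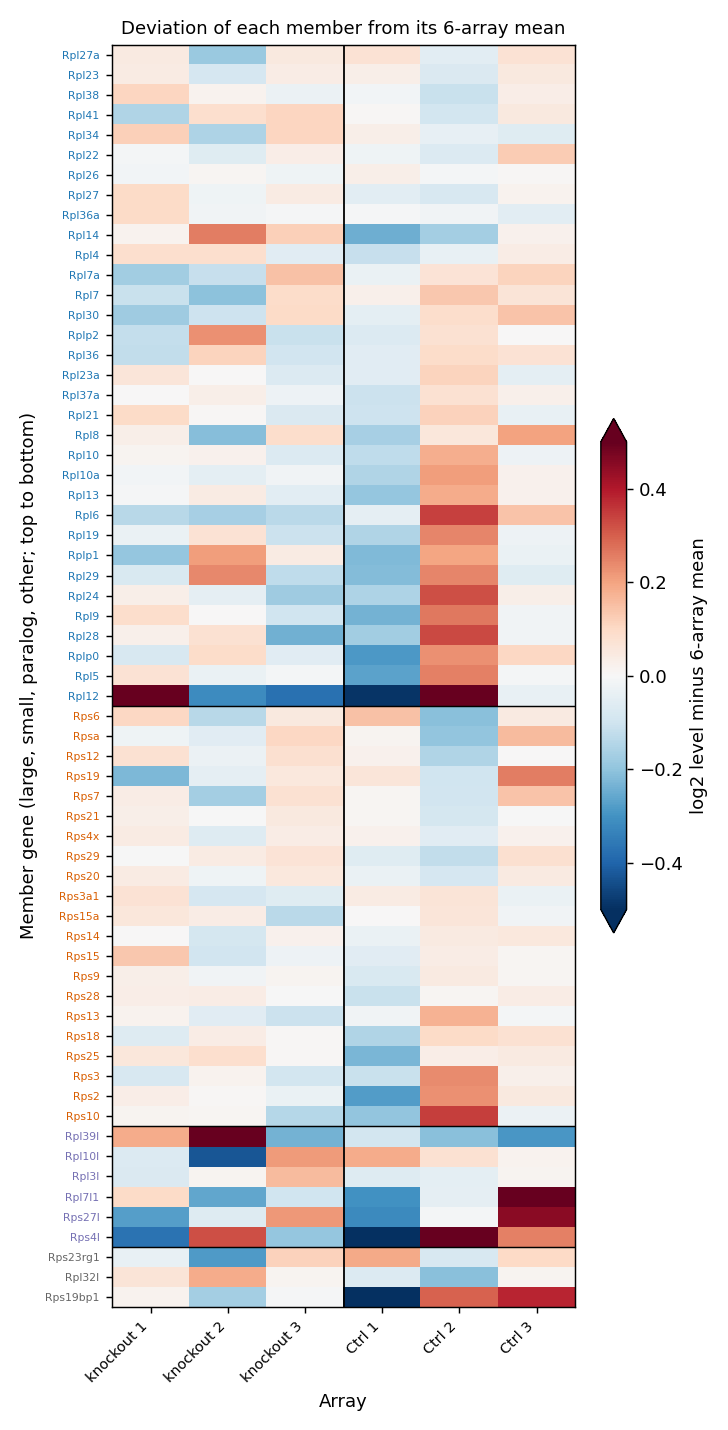
Log2 level of each of the 63 members minus its mean over 6 arrays, by array (columns, knockout left and Ctrl right) and role (label colour and blocks). Colours are capped at 0.5 either way, and within a block members are ordered by Ctrl 2 minus Ctrl 1, which runs from -0.36 in Rps6 to 1.02 in Rpl12 among subunit proteins.

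Sex-linked transcripts moved with these arrays. Xist, expressed from the inactive X chromosome of females, read 9.65 in Ctrl 1, 3.89 in Ctrl 2 and 8.86 in Ctrl 3, and 7.56, 8.58 and 8.84 in the knockout arrays. The mean of the Y-linked genes Eif2s3y, Kdm5d and Uty read 2.93, 6.75 and 5.21 in the Ctrl arrays and 6.90, 5.47 and 4.80 in the knockout arrays. Arrays of one genotype thus differed in both. In all knockout arrays and in Ctrl 3, Xist and the Y-linked mean both lay above the background level, so that transcripts of both sexes were present. In Ctrl 1 the Y-linked mean lay under that level, and in Ctrl 2 Xist did. Whether the arrays were pools of animals was not tested. Ctrl 1 and Ctrl 2, the extremes for many members, were also the extremes for Xist, and the part of sex in the members' variation was not tested. With Xist minus the Y-linked mean as a covariate, 0 members passed by limma and the median difference was -0.0035.

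Other genes of protein synthesis had the same order of Ctrl 1 and Ctrl 2. Relative to each gene's mean, the median of the large subunit members was -0.10 in Ctrl 1 and 0.09 in Ctrl 2, and that of the small subunit members -0.03 and 0.04, the latter also the value of Ctrl 3. For the 77 mitochondrial ribosomal protein genes it was -0.14 and 0.18, and for 43 genes of ribosome biogenesis -0.08 and 0.11. For 15 translation factors and other TOP mRNAs it was -0.07 and 0.15. For 12 genes of growth control and nucleolar stress it was 0.05 and 0.00045, and over all genes 0.03 and 0.0031. Marker genes of myeloid cells had this order of Ctrl 1 and Ctrl 2 too, with a median of -0.14 and 0.10. Their lowest median was in Ctrl 3, at -0.19, where that of the members was 0.02. Of the 8 myeloid markers measured, 5 were higher in Ctrl 2 than in Ctrl 1, among them Lyz2 at 5.83 against 4.78 and Cd14 by only 0.0078. Itgax, about as bright as Cd27, was also among these, at 9.37 against 8.93. Of the 8 markers, 4 lay under background in their mean. The part of other cells in the members' variation was not tested.

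**Figure D3:**
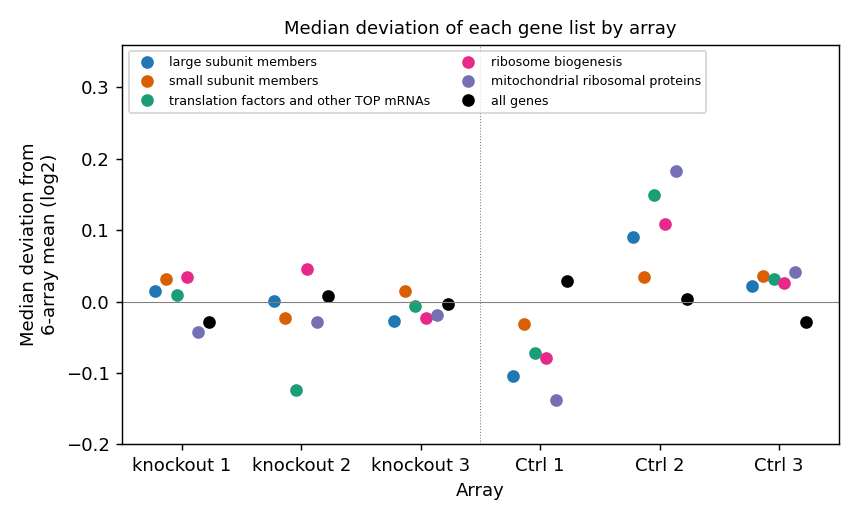
Median over each gene list of the log2 level minus the gene's mean over 6 arrays, by array. The 5 lists of protein synthesis lie between -0.14 and -0.03 in Ctrl 1 and between 0.04 and 0.18 in Ctrl 2, while all genes lie at 0.03 and 0.0031.

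None of the other genes of the pathway passed between the genotypes. Among 146 genes of 4 lists, 0 had an adjusted p under 0.05 by limma, where 0.0201% of all genes did. Ribosome biogenesis had 43 measured genes, 24 with positive and 19 with negative differences (median 0.01). An unadjusted p under 0.05 by limma was reached by 2 of the 43 and by 3.47% of all genes. Wdr36, which processes the small subunit's RNA, read 6.24, 5.91 and 6.14 in the knockout arrays and 5.50, 5.64 and 5.65 in the Ctrl arrays, a difference of 0.50 (SE 0.14, unadjusted p = 0.00593, adjusted p = 0.999 by limma). Nob1, the endonuclease that matures the small subunit's RNA, read 5.90, 5.70 and 6.27 against 6.34, 6.34 and 6.53, a difference of -0.45 (SE 0.17). Both separated the genotypes, in opposite directions. With Ubtf, a factor of ribosomal RNA transcription named after its values were seen, 3 of 43 genes (6.98%) had no overlap, where 8.33% of all genes had none. Rrs1, an assembly factor of the large subunit, differed by -0.45 (SE 0.24) with overlap.

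The median differences of the other lists were also near 0. Of 15 measured translation factors and other TOP mRNAs, 5 had positive and 10 negative differences (median -0.04). The transcription and nascent chain factor Btf3 differed by -0.27 (SE 0.16), the initiation factor subunit Eif3e by -0.24 (SE 0.14) and Naca, the partner of Btf3 at the nascent chain, by -0.20 (SE 0.16). Of 77 mitochondrial ribosomal proteins, 27 had positive and 50 negative differences (median -0.05), with Mrpl39 at 0.27 (SE 0.13), Mrpl55 at -0.38 (SE 0.21) and Mrpl21 at -0.35 (SE 0.18). Of 12 genes of growth control and nucleolar stress, 6 were positive and 6 negative (median 0.0027). The mTOR inhibitor Tsc1 differed by 0.23 (SE 0.14), the translation repressor Eif4ebp1 by -0.24 (SE 0.15) and the mTOR partner Rptor by -0.19 (SE 0.16).

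Many members were measured by several probe sets, which bears on how independent their values are. The 63 members had 219 probe sets with a single symbol, and 39 members had more than 1. Rps12 had 14 probe sets with 8 distinct sets of values, and Rpl23a had 13 with 11. Over all members, 19 probe sets held values identical in all 6 arrays to those of another. Ribosomal protein genes have many processed pseudogenes, and which copy a probe set was placed on is not in the annotation used here. Probe sets of such a gene share probes or targets and were not counted as replicates.

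Differences were next compared between the probe sets of a gene. Leaving out Rpl41, whose 3 probe sets were identical, all probe sets had the same sign in 25 of 38 members, though such probe sets are not independent. The range of differences within a gene was at most 0.24, in Rpsa. Rpsa, also known as the laminin receptor, had 5 probe sets. The one with the highest mean read 11.72 in Ctrl 2 and 11.93 in Ctrl 1 and differed by 0.02 between genotypes (SE 0.15). The 4 others were highest in Ctrl 2 and lowest in Ctrl 1, with genotype differences between -0.22 and -0.09. The reading of Rpsa therefore depended on the probe set. With the lowest-mean probe set of every gene, 0 members passed and the median difference was -0.0084.

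**Figure D4:**
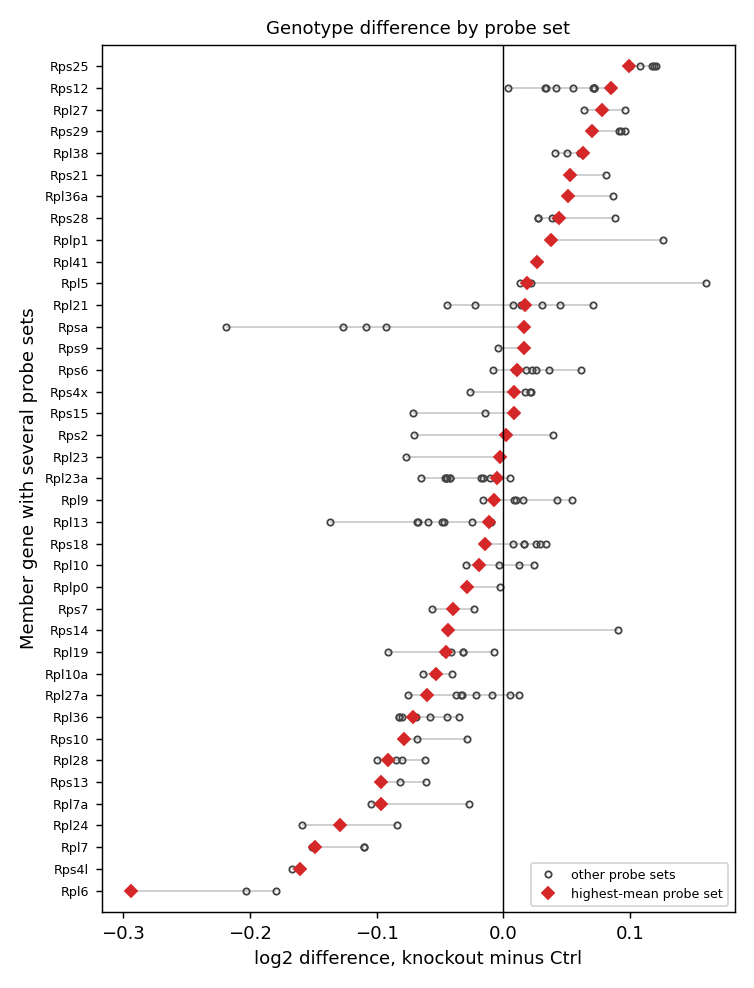
Knockout minus Ctrl difference of log2 levels for each probe set of the 39 members with several, with the highest-mean probe set as a filled diamond and the others as open circles. All lie between -0.29 (Rpl6) and 0.16 (Rpl5), and Rpsa has the widest range, -0.22 to 0.02.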

How the data were processed

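The data were log2 expression values of 35556 probe sets on 6 Affymetrix arrays, 1 per sample, deposited by the authors as log2 values between 0.74 and 13.6. RMA and Partek 6.6 were used, per the submitters' processing notes. The step each did and the genome build are not given in the sources used here. RMA commonly quantile-normalizes arrays, so a change shared by most bright genes would be reduced. Array medians lay between 4.23 and 4.33. Values carry no depth, and the number of arrays limits precision.

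Gene symbols came from the platform annotation of GEO (21789 with 1 symbol, 1621 with several, 12146 not listed), 1 highest-mean probe set per gene. Genotypes were compared with limma 3.58.1 in R 4.3.3 (lmFit, eBayes, two-sided), on values as deposited, with Benjamini-Hochberg adjustment over 19938 genes, threshold 0.05, no filter. The fit was tested on simulated data. Members, lists and alternatives were chosen with earlier results of these data known. Named members were the 10 with the smallest p, the 5 highest and 5 lowest means, the X-linked ones and a written list. From other lists the 3 smallest p were named. Rps10, Rps18, Rpl23a and Rps12 were named after their values or sequences were seen.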

Additional observations from a re-analysis of the deposited data

How the results depend on the processing

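The results were recomputed under 16 alternatives: each array omitted once, 3 scalings (array medians, the 1000 brightest other genes, repeated quantile normalization), 3 changes to the fit's variance or design (array weights, a trended prior, a replicate block), 3 choices of probe set (the dimmer one per gene, all of them, only genes in the brighter part), and a covariate for sex-linked transcripts. The brightness limit left out Rpl3l, Rpl10l and Rpl39l. In each of them 0 ribosomal protein genes and 0 of 146 other pathway genes passed by limma, the lowest adjusted p of a member being 0.991. At most 2 members had an unadjusted p under 0.05 by limma, in the fit without Ctrl replicate 1, where Rpl6 differed by -0.39. Of all genes, 3.47% had such a p in the main fit, and the share in the fit without that array is not given here. The median difference of the members lay between -0.047 (without Ctrl replicate 1) and 0.029 (without Ctrl replicate 2), beside an SD of 0.047 between arrays of a genotype. For the canonical proteins alone it was -0.0058. Signs of differences near 0 were not all stable, as 18 of the 35 named members changed sign in some alternative, the largest of them differing by 0.18. Of 557 values of named members under the alternatives, 50 had a changed sign. Deviations of same-numbered arrays from their genotype means correlated with r = 0.0484, 0.148 and 0.141 over all genes, and those of differently numbered arrays with r from -0.186 to 0.0453. Over the members the same-numbered r were -0.049, 0.293 and 0.363, and the others ran from -0.519 to 0.259. Centring on the genotype means forces some r to be negative. The labels do not say whether the numbers mark pairs, and the main fit did not use them. With the replicate block 0 members passed and the median was -0.0074.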
